A study of Mus musculus with 13 samples.

Results

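Myeloid and macrophage transcription factors were followed in F4/80+ cells of the mouse fetal liver. The group holds 9 genes, taken by name: Spi1, Cebpa, Cebpb, Cebpe, Irf8, Maf, Nr1h3, Gfi1 and Runx1. All 9 were found among the 23337 genes counted in the EKLF+/+ and EKLF-/- libraries, among the 35454 genes summed in the EKLF/GFP libraries, and among the 54227 genes of the single-cell matrix.

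These factors set the fate of blood cells. Spi1 encodes PU.1, an ETS factor that macrophages and neutrophils need, and its partners and opponents share out the branches below it: C/EBP proteins and GFI1 drive granulocytes, IRF8 drives monocytes and dendritic cells, MAF and LXRα (the product of Nr1h3) act in tissue macrophages, and RUNX1 acts from the first blood stem cells onward. Fetal liver macrophages sit at the center of erythroblastic islands, where they nurse maturing red cells, and EKLF (the product of Klf1) is a zinc finger activator best known from the erythroid cells around them.

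Livers were taken at E13.5, and RNA was sequenced from 12 bulk libraries in 4 groups of 3, which the study describes as biological triplicates of cells sorted by flow cytometry. EKLF+/+ and EKLF-/- cells were F4/80+ cells of wild-type livers and of livers homozygous for a Klf1 null allele (Klf1tm1Sho). EKLF/GFP+ and EKLF/GFP- cells were F4/80+ cells of pEKLF/GFP livers, which carry a single-copy transgene with the EKLF promoter in front of GFP, sorted by whether they held GFP. The labels give C57BL/6 for every sample, while the study's list of resources gives 129S4/SvJae for the null line, so that strain and genotype cannot be told apart from these sources. RNA of EKLF/GFP+ cells was prepared with a kit for small inputs and that of the other groups with Trizol, and the methods give a lower RNA integrity for EKLF/GFP+ cells than for EKLF+/+ and EKLF-/- cells, so that RNA preparation and quality cannot be told apart from the GFP group. The last sample was 1 single-cell library of wild-type F4/80+ cells held on magnetic beads, from pooled littermate embryos, with no replicate.

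Counts on genes ran from 10695514 in EKLF+/+ 1 to 15362161 in EKLF+/+ 2, and summed read estimates from 22723199 in EKLF/GFP- 3 to 28736342 in EKLF/GFP- 2. Below, a normalized count is a count scaled to the mean library of its comparison by TMM factors. Klf1 stood at 4731, 3977 and 4906 normalized counts in EKLF+/+ libraries 1 to 3, and at 766.7, 838.4 and 745.5 in EKLF-/- libraries 1 to 3. In the reporter sort, Klf1 was at 2626, 2355 and 2278 in EKLF/GFP+ and at 902.7, 1194 and 747.4 in EKLF/GFP-. Neither pair of groups overlapped, and the order of Klf1 was as labelled in each. Adgre1, which encodes the F4/80 antigen used for sorting, was present in every library, at 349.9 to 526 normalized counts across EKLF+/+ and EKLF-/- and at 954.4 to 2725 across the reporter sort.

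The first comparison asked how the factors stood in F4/80+ cells that lack EKLF. Spi1, Cebpe and Gfi1 rose in EKLF-/- cells by 1.82-fold, 2.22-fold and 2.21-fold. Of 12753 genes tested with edgeR's quasi-likelihood test and a Benjamini-Hochberg adjusted p under 0.05, 9.72% rose and 10.6% fell, 20.3% in all. Of the 9 members 3 rose and 0 fell, while 1 was lower at an unadjusted p under 0.05 and 1 fell by DESeq2. The median log2 change was 0.41 over the members and 0.0158 over all genes tested. Groups did not overlap for 4 members, and for 46.3% of all genes. The other 6 members, among them the macrophage factors Maf and Nr1h3, did not pass the test.

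Spi1 encodes PU.1, which turns on receptors and enzymes of macrophages and neutrophils alike. It was at 1588, 1746 and 1280 normalized counts in EKLF+/+ libraries 1 to 3 and at 2106, 3820 and 2454 in EKLF-/- libraries 1 to 3. All EKLF-/- libraries lay above all EKLF+/+ libraries, and EKLF-/- 2 lay farthest out. The log2 change was 0.86 (SE 0.22, n = 3 per group) with an adjusted p of 0.0299 by edgeR's quasi-likelihood test and Benjamini-Hochberg adjustment. Leaving out a library ended the call in 4 of 6 fits, with an adjusted p of 0.0885, 0.074 and 0.111 without EKLF+/+ 1, 2 and 3, and of 0.0563 without EKLF-/- 3. Without EKLF-/- 2 the log2 change was 0.55 and the adjusted p 0.0146. In bulk RNA, more cells of a type and more RNA per cell cannot be told apart.

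Cebpe, which drives the last steps of granulocyte maturation, was at 522.4, 661.8 and 396.4 normalized counts in EKLF+/+ and at 835.6, 1666 and 1013 in EKLF-/-. The groups did not overlap, and EKLF-/- 2 was again the highest. The log2 change was 1.15 (SE 0.27), with an adjusted p of 0.0227 by edgeR's quasi-likelihood test and Benjamini-Hochberg adjustment. That adjusted p became 0.0778 without EKLF+/+ 1 and 0.0878 without EKLF+/+ 3, where the call was lost. Gfi1, a zinc finger repressor that neutrophils need, was at 437.9, 383.5 and 257.8 in EKLF+/+ and at 504.5, 1130 and 754.6 in EKLF-/-. The lowest EKLF-/- library lay just above the highest EKLF+/+ library. The log2 change of Gfi1 was 1.15 (SE 0.30), with an adjusted p of 0.0306 in the same test, which became 0.0585, 0.0958 and 0.107 without EKLF+/+ 1, 2 and 3 and 0.0695 without EKLF-/- 3. A test against a limit of a 2-fold change called neither gene, nor Spi1, nor any of the list genes named below for this comparison.

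Runx1, the DNA-binding partner of CBFβ in stem cells, megakaryocytes and myeloid cells, went the other way without passing the test. It was at 1562, 1966 and 1391 normalized counts in EKLF+/+ and at 1311, 999.1 and 1194 in EKLF-/-. Every EKLF-/- library lay below every EKLF+/+ library, and EKLF-/- 2, the highest library for the other 8 members, was the lowest for Runx1. The log2 change was -0.49 (SE 0.15), with a p of 0.0122 and an adjusted p of 0.0554 by edgeR's quasi-likelihood test and Benjamini-Hochberg adjustment. DESeq2 gave Runx1 an adjusted p of 0.0253, the fit with no filter on low counts 0.0422, and the fit without EKLF-/- 1 an adjusted p of 0.0331. These were the 3 of 15 alternatives that called it. Over all of them the log2 change ran from -0.62 to -0.14, nearest to 0 where gene length was corrected, and the adjusted p reached 0.334 with that correction.

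The remaining C/EBP members overlapped between the groups. Cebpa, which granulocyte-monocyte progenitors need, was at 884.3, 981.9 and 784.2 normalized counts in EKLF+/+ and at 831.1, 1246 and 1000 in EKLF-/- (log2 change 0.21, SE 0.16). Cebpb, a factor of stress granulopoiesis and macrophage activation, was at 439.1, 580.1 and 456 in EKLF+/+ and at 294.9, 866.3 and 803.9 in EKLF-/- (log2 change 0.41, SE 0.35). EKLF-/- 1 was the lowest of all Cebpb libraries, and without it the log2 change of Cebpb was 0.76 and its adjusted p 0.0108 by edgeR's quasi-likelihood test and Benjamini-Hochberg adjustment, against 0.397 with all libraries.

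Irf8, which steers progenitors to monocytes and away from neutrophils, was at 1031, 1216 and 992.2 normalized counts in EKLF+/+ and at 1066, 1348 and 1212 in EKLF-/-, a log2 change of 0.16 (SE 0.13). Its libraries overlapped. Maf, a bZIP factor of tissue macrophages, was at 218.4, 213.9 and 221 in EKLF+/+ and at 214.1, 360.3 and 210.3 in EKLF-/-, a log2 change of 0.26 (SE 0.21). Nr1h3, the oxysterol receptor LXRα, was at 55.49, 66.1 and 98.57 in EKLF+/+ and at 62.6, 154.7 and 87.53 in EKLF-/-, a log2 change of 0.46 (SE 0.35). For Maf and for Nr1h3 only EKLF-/- 2 stood above all EKLF+/+ libraries. Adjusted p-values of Irf8, Maf and Nr1h3 were 0.362, 0.382 and 0.348 by edgeR's quasi-likelihood test and Benjamini-Hochberg adjustment.

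**Figure D1:**
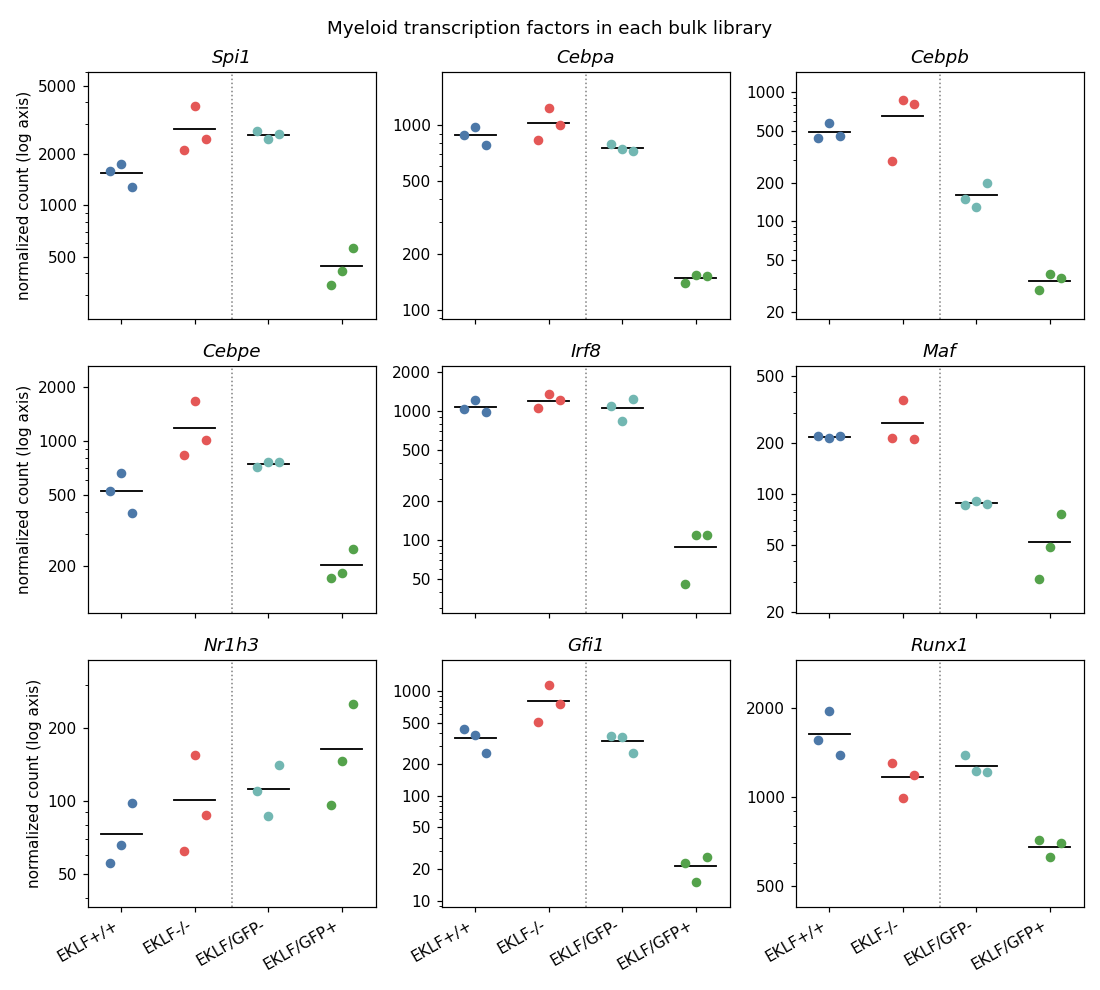
Normalized counts (log axis) of each of the 9 members in each bulk library, with points for libraries and bars for the mean of 3, shown for EKLF+/+ beside EKLF-/- and for EKLF/GFP- beside EKLF/GFP+, which were normalized apart (dotted line). Spi1, Cebpe and Gfi1 sit higher in all EKLF-/- libraries than in all EKLF+/+ libraries, and Irf8 runs from 45.45 to 110.1 in EKLF/GFP+ against 835.3 to 1232 in EKLF/GFP-.

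Markers of other cells differed between these groups too. Neutrophil markers summed to 22292, 35280 and 30529 normalized counts in EKLF+/+ and to 37955, 67792 and 48862 in EKLF-/-, with 3 of 9 higher and 1 lower. Markers of granulocyte-monocyte progenitors summed to 61956, 70177 and 51721 in EKLF+/+ and to 72192, 143263 and 84287 in EKLF-/-, with 4 of 7 higher and 1 lower. Both sums were higher in all EKLF-/- libraries, and both were highest in EKLF-/- 2, as Spi1, Cebpe and Gfi1 were. The most abundant genes of these lists were S100a9 and Mpo, and no marker of either list was at 0 throughout. Eosinophil markers, led by Prg2, summed to 3945, 5993 and 2888 in EKLF+/+ and to 7420, 12251 and 8219 in EKLF-/-, with 2 of 4 higher. Erythroid markers, led by Slc4a1, summed to 200131, 193786 and 250780 in EKLF+/+ and to 79477, 51723 and 69703 in EKLF-/-, with 6 of 9 tested lower and Hba-a1 at 0 in every library. Hba-a1 was among the top genes of erythroid-like clusters in the single-cell library described below. Its count of 0 here thus does not show that its RNA was absent, and the cause was not tested. The sums of dendritic cell, endothelial and mesenchymal markers were lower in all EKLF-/- libraries, as Runx1 was, although not every marker was, and none was at 0 throughout. Dendritic cell markers, led by Flt3, summed to 441.5, 518.3 and 480.9 in EKLF+/+ and to 169.7, 278.5 and 230.4 in EKLF-/-, with 1 of 2 tested lower. Endothelial markers, led by Egfl7, summed to 2773, 2457 and 2439 and to 1705, 1686 and 1557, with 4 of 7 lower, while Egfl7 itself overlapped between the groups. Mesenchymal markers, led by Col3a1, summed to 693.7, 1826 and 500.4 and to 441.9, 301.4 and 338, with 4 of 7 tested lower. The sums of megakaryocyte and lymphoid markers overlapped. Those of megakaryocytes, led by Itga2b, summed to 2694, 4658 and 3082 and to 3586, 4953 and 4117, with 1 of 8 lower, and those of lymphoid cells, led by Nkg7, to 486.2, 497.5 and 464.7 and to 494.5, 1144 and 598.6, with 1 of 5 tested higher and 1 lower, and none at 0 throughout. The part of these cells in the changes of the members was not tested.

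Markers of macrophages themselves, led by Slc40a1, summed to 4509, 4937 and 6062 in EKLF+/+ and to 4639, 6463 and 4194 in EKLF-/-, with 3 of 14 lower. Monocyte markers, led by F13a1, summed to 4558, 5559 and 5336 and to 5602, 7117 and 5504, with 1 of 8 higher. Per 100 macrophage marker counts, Spi1 was at 35.2, 35.4 and 21.1 in EKLF+/+ and at 45.4, 59.1 and 58.5 in EKLF-/-. Gfi1 on the same scale was at 9.71, 7.77 and 4.25 in EKLF+/+ and at 10.9, 17.5 and 18.0 in EKLF-/-. Cebpe was at 11.6, 13.4 and 6.54 in EKLF+/+ and at 18.0, 25.8 and 24.2 in EKLF-/-. Set against macrophage markers, Spi1, Gfi1 and Cebpe did not overlap between the groups. Runx1, at 34.6, 39.8 and 22.9 in EKLF+/+ and 28.3, 15.5 and 28.5 in EKLF-/-, did overlap. In the single-cell library described below, Gfi1 and Cebpe had a count in 0.187% and 2.43% of macrophage-like cells. Their shares in neutrophil-like cells were 46.4% and 96.8%, while Spi1 had 97.0% and 96.4% in these classes. A macrophage scale thus cannot show in which cells these genes changed. Their levels relative to neutrophil markers were not tested.

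Other transcription factors of the same lineages moved in both directions. Of 32 further macrophage and monocyte factors tested, 8 rose, 3 fell and 21 did not pass the test, with a median log2 change of 0.16. The number that rose was 1, 2 and 1 without EKLF+/+ 1, 2 and 3, and 9, 6 and 2 without EKLF-/- 1, 2 and 3, while the number that fell was 2, 1, 1, 4, 3 and 1 in the same order. Rxra, which encodes the dimer partner of LXRα, was at 550.5 ± 39.95 normalized counts in EKLF+/+ and 336.4 ± 36.84 in EKLF-/- (SD, n = 3). Its log2 change of -0.71 had an adjusted p of 0.00849 by edgeR's quasi-likelihood test and Benjamini-Hochberg adjustment, and it was called in 6 of 6 fits that each left out 1 library. The largest rises in this list did not keep their calls in that way. Bhlhe40, a basic helix-loop-helix repressor, rose by 1.95-fold (log2 change 0.96, SE 0.27, adjusted p = 0.0406), with an adjusted p of 0.132, 0.129, 0.0726 and 0.0693 without EKLF+/+ 1, EKLF+/+ 3, EKLF-/- 2 and EKLF-/- 3. Id3, an inhibitor of E proteins, rose by 1.92-fold (0.94, SE 0.23, adjusted p = 0.0249), with 0.0787, 0.0896, 0.0903 and 0.0563 without EKLF+/+ 1, 2 and 3 and EKLF-/- 3, and Tfec, a relative of MITF, by 1.86-fold (0.90, SE 0.21, adjusted p = 0.0219), with 0.0847, 0.0633 and 0.0782 without EKLF+/+ 1, 2 and 3. Beside Rxra, Egr1 and Zeb2 fell. Egr1, an immediate early zinc finger factor, had a log2 change of -1.20 (SE 0.31, adjusted p = 0.0296), and an adjusted p of 0.079, 0.0559 and 0.0519 without EKLF+/+ 2, EKLF+/+ 3 and EKLF-/- 3. Zeb2, a zinc finger repressor, had a log2 change of -0.57 (SE 0.14, adjusted p = 0.0246), with 0.0707, 0.0911, 0.0562 and 0.0722 without EKLF+/+ 1, 2 and 3 and EKLF-/- 3, and a correction for gene length put it at -0.03 (adjusted p = 0.84).

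Of 21 factors of granulocytes, progenitors and erythroid cells, 1 rose (Cebpd, log2 change 0.94), 5 fell and 15 did not pass, with a median of -0.16. Without EKLF+/+ 1, 2 and 3 and without EKLF-/- 1, 2 and 3 the number that rose was 0, 0, 0, 1, 1 and 0, and the number that fell 2, 2, 3, 6, 4 and 2, in that order. Runx2, a relative of Runx1, fell from 356.6 ± 34.01 to 215.9 ± 13.11 normalized counts, a log2 change of -0.72 (adjusted p = 0.00823, edgeR's quasi-likelihood test and Benjamini-Hochberg adjustment). Lmo2, a bridging protein of the stem cell and erythroid factor complex, fell from 3813 ± 272.6 to 2303 ± 148, a log2 change of -0.73 (adjusted p = 0.00329 in the same test). Both were called in 6 of 6 fits that left out 1 library. Erg, an ETS factor of stem cells and megakaryocytes, fell by 1.51-fold (log2 change -0.59, SE 0.17, adjusted p = 0.0436), and its adjusted p was 0.094, 0.129 and 0.0635 without EKLF+/+ 1, 2 and 3 and 0.0525 and 0.0963 without EKLF-/- 2 and 3.

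Of 13 partners and corepressors of the members, which include CBFβ, the Tribbles proteins that mark C/EBPα for destruction and the LSD1 and histone deacetylase complexes used by GFI1, 0 rose and 1 fell by edgeR. At an unadjusted p under 0.05, 2 were higher and 2 lower, and DESeq2 called 1 higher and 2 lower. The median log2 change was -0.14. Without EKLF-/- 1, 2 rose and 2 fell, and without any other single library 0 rose and 1 fell.

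Genes that the members are known to turn on were read next. Of 13 PU.1 targets, 3 rose and 10 did not pass, with a median of 0.40, and 0 fell by edgeR, by DESeq2 or at an unadjusted p under 0.05, where 8 were higher. Fcgr3, an Fc receptor of macrophages and neutrophils, rose from 754.5 ± 110.5 to 1449 ± 424.8 normalized counts, a log2 change of 0.94 (adjusted p = 0.0167, edgeR's quasi-likelihood test and Benjamini-Hochberg adjustment), and the call ended without EKLF+/+ 1 (0.0714) and without EKLF+/+ 3 (0.0731). The others that rose were Csf2ra, a chain of the GM-CSF receptor, by 1.7-fold (log2 change 0.77, adjusted p = 0.0278) and Ncf1, a subunit of the phagocyte oxidase, by 1.5-fold (0.59, adjusted p = 0.0321). Both calls ended without EKLF+/+ 1, EKLF+/+ 3 and EKLF-/- 3, with an adjusted p of 0.0741, 0.0756 and 0.065 for Csf2ra and of 0.117, 0.117 and 0.0687 for Ncf1. The number of PU.1 targets that rose was 0, 4 and 0 without EKLF+/+ 1, 2 and 3, and 5, 3 and 1 without EKLF-/- 1, 2 and 3.

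The 4 primary granule genes, targets of C/EBPα and RUNX1 in promyelocytes that are also among the progenitor markers above, had a median of 1.37, and 3 of them rose. Elane, neutrophil elastase, rose from 1832 ± 274.8 to 7621 ± 5079 normalized counts, a log2 change of 2.06 (adjusted p = 0.0119, edgeR's quasi-likelihood test and Benjamini-Hochberg adjustment). That change was 1.35 without EKLF-/- 2, and the adjusted p was 0.0606 without EKLF+/+ 2 and 0.062 without EKLF+/+ 3. Prtn3 and Ctsg, the companion proteases, rose by 2.7-fold and 2.48-fold, and each call ended without EKLF+/+ 1, 2 or 3, where the adjusted p of Prtn3 was 0.0545, 0.06 and 0.0721 and that of Ctsg 0.081, 0.124 and 0.0997. Without EKLF-/- 2 the log2 change of Ctsg was 0.71. Mpo, myeloperoxidase, was at 47332, 55826 and 38813 in EKLF+/+ and at 52833, 97088 and 60328 in EKLF-/- (adjusted p = 0.118 in the same test). The number of primary granule genes that rose was 1, 0 and 0 without EKLF+/+ 1, 2 and 3, and 4 without EKLF-/- 1.

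Of the 6 secondary granule genes, targets of C/EBPε that are, except Mmp9, also among the neutrophil markers above, Camp rose, Mmp8 fell and 4 did not pass, with a median of 0.31. Camp, the cathelicidin, had a log2 change of 1.23 (SE 0.27, adjusted p = 0.0172, edgeR's quasi-likelihood test and Benjamini-Hochberg adjustment), and its call ended without EKLF+/+ 1, EKLF+/+ 3 and EKLF-/- 3 (adjusted p = 0.0597, 0.0619 and 0.05). Mmp8, the neutrophil collagenase, had a log2 change of -0.60 (SE 0.17, adjusted p = 0.0374 in the same test), and its call ended without EKLF+/+ 2, EKLF+/+ 3 and EKLF-/- 3 (adjusted p = 0.122, 0.102 and 0.0858). Ltf and Ngp had log2 changes of 0.19 and 0.42, and Lcn2 and Mmp9 of 0.56 and -0.43. DESeq2 called Lcn2 (0.044), and a correction for gene length called Mmp9 (0.0361). Without EKLF-/- 1, 2 secondary granule genes rose, and the list was thus divided where Cebpe rose.

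Of 6 IRF8 targets tested 1 rose by edgeR and 5 did not pass, with a median of 0.41, and 4 were higher at an unadjusted p under 0.05. The gene that rose was Ctss, cathepsin S, with a log2 change of 1.12 (SE 0.30, adjusted p = 0.0331, edgeR's quasi-likelihood test and Benjamini-Hochberg adjustment). Its adjusted p was 0.112, 0.111 and 0.0742 without EKLF+/+ 1, 2 and 3, and 0.0539 without EKLF-/- 3. Of 4 MAF targets tested 1 fell, with a median of 0.01. C1qa, C1qb and C1qc, which encode complement C1q and, like Mrc1, are among the macrophage markers above, had log2 changes of -0.13, 0.53 and 0.15 with adjusted p-values of 0.827, 0.335 and 0.746 in that test. Mrc1, the mannose receptor, fell by 1.63-fold (log2 change -0.70, SE 0.17, adjusted p = 0.0243), and its call ended without EKLF+/+ 1, 2 and 3 (0.0862, 0.0814 and 0.0616) and without EKLF-/- 3 (0.0871).

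Targets of LXRα divided. Of 13 tested 3 rose, 3 fell and 7 did not pass, with a median log2 change of 0.12. Abcg1, a cholesterol exporter, rose from 292.6 ± 27.23 to 648.6 ± 119.4 normalized counts, a log2 change of 1.15 (SE 0.16, adjusted p = 0.00267, edgeR's quasi-likelihood test and Benjamini-Hochberg adjustment), in 6 of 6 fits that left out 1 library. Srebf1 and Scd2, a regulator and an enzyme of fatty acid synthesis, rose by 1.45-fold and 1.57-fold (log2 changes 0.54 and 0.65, adjusted p = 0.0198 and 0.0122). Without EKLF+/+ 2, EKLF+/+ 3 and EKLF-/- 3 the adjusted p was 0.0865, 0.0805 and 0.0706 for Srebf1 and 0.0599, 0.0614 and 0.0523 for Scd2, so that these calls ended. Abca1, the other main cholesterol exporter, fell by 1.83-fold (log2 change -0.87, SE 0.22, adjusted p = 0.0272 in the same test), and had an adjusted p of 0.0915, 0.0904 and 0.0812 without EKLF+/+ 2, EKLF+/+ 3 and EKLF-/- 3. Scd1, a fatty acid desaturase, fell from 1022 ± 530.3 to 304.3 ± 80.82 normalized counts (log2 change -1.74, SE 0.36, adjusted p = 0.0143). Cd5l, a secreted macrophage protein that is also among the macrophage markers above, fell by 2.05-fold (log2 change -1.03, SE 0.21, adjusted p = 0.0136). Without EKLF-/- 3 the adjusted p was 0.0535 for Scd1 and 0.0525 for Cd5l. The number of LXRα targets that rose was 1 without EKLF+/+ 2, EKLF+/+ 3 or EKLF-/- 3, and the number that fell was 2, 2 and 0 in those fits. Of 5 genes tested that GFI1 is known to repress, 1 rose by edgeR, with a median of -0.41. It was Id2, a dominant negative partner of E proteins (log2 change 0.71, SE 0.16, adjusted p = 0.0189), and its adjusted p was 0.0746, 0.0545 and 0.0774 without EKLF+/+ 1, 2 and 3 and 0.0538 without EKLF-/- 3. Csf1, Hoxa9 and Meis1 of that list had log2 changes of 0.32, -0.86 and -0.41.

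**Figure D2:**
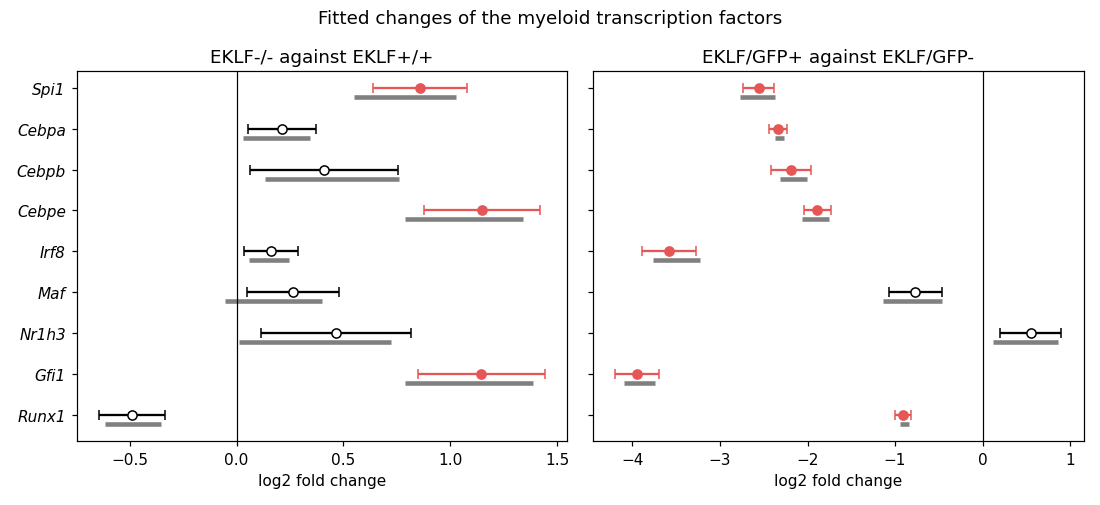
Log2 fold change of each member with its standard error (capped bars) and the range over 6 fits that each left out 1 library (grey bars), with EKLF-/- set against EKLF+/+ and EKLF/GFP+ set against EKLF/GFP-, and with filled points for members past an adjusted p of 0.05 by edgeR's quasi-likelihood test. In EKLF-/- the points lie between -0.49 and 1.15, and in EKLF/GFP+ they run from -3.94 for Gfi1 to 0.55 for Nr1h3.

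The second comparison asked how F4/80+ cells sorted as positive for the EKLF promoter reporter differ from those sorted as negative, and Klf1 was counted in both. In EKLF/GFP+ cells 7 of the 9 members fell: Gfi1 by 15.4-fold, Irf8 by 12-fold, Spi1 by 5.89-fold, Cebpa by 5.06-fold, Cebpb by 4.55-fold, Cebpe by 3.7-fold and Runx1 by 1.87-fold. The tissue macrophage factors Maf and Nr1h3 did not pass the test. Of 14248 genes tested by edgeR 25.8% fell and 18.9% rose, 44.7% in all, and the groups did not overlap for 55.7% of genes and for 8 of the 9 members. No member rose by edgeR, by DESeq2 or at an unadjusted p under 0.05, where 8 were lower. The median log2 change was -2.19 over the members and -0.01335 over all genes tested. All 7 calls held in 6 of 6 fits that each left out 1 library.

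Spi1 was at 343.7, 411.3 and 564.9 normalized counts in EKLF/GFP+ libraries 1 to 3 and at 2704, 2442 and 2622 in EKLF/GFP- libraries 1 to 3. The 3 EKLF/GFP- libraries lay close together, far above the others. Its log2 change was -2.56 (SE 0.17, n = 3 per group), with an adjusted p of 2.45e-05 by edgeR's quasi-likelihood test and Benjamini-Hochberg adjustment. Irf8, which works with PU.1 on shared sites, was at 45.45, 109.3 and 110.1 in EKLF/GFP+ and at 1088, 835.3 and 1232 in EKLF/GFP-. EKLF/GFP+ 1 was the lowest, below the other two of its group, and no EKLF/GFP+ library came near an EKLF/GFP- library. The log2 change of Irf8 was -3.58 (SE 0.31, adjusted p = 6.47e-05 in the same test).

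Among the granulocyte factors, Gfi1 was at 22.72, 15.15 and 25.96 normalized counts in EKLF/GFP+ and at 372.5, 363 and 254.7 in EKLF/GFP-. It had the largest change of the 9, a log2 change of -3.94 (SE 0.25, adjusted p = 1.88e-05, edgeR's quasi-likelihood test and Benjamini-Hochberg adjustment). Cebpe was at 171.4, 181.9 and 249.2 in EKLF/GFP+ and at 712.2, 756.3 and 758.5 in EKLF/GFP-, with a log2 change of -1.89 (SE 0.15, adjusted p = 4.25e-05). The EKLF/GFP+ cells thus kept a larger share of Cebpe counts than of Gfi1 counts, although the difference between both changes was not tested.

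Cebpa was at 140.1, 153.7 and 152.6 normalized counts in EKLF/GFP+ and at 791.1, 744.3 and 723 in EKLF/GFP-. The groups did not overlap, and its log2 change of -2.34 had an SE of 0.10 and an adjusted p of 6.49e-06 by edgeR's quasi-likelihood test and Benjamini-Hochberg adjustment. Cebpa has 2 annotated transcripts, and 87.31% to 100% of its estimated reads fell on Cebpa-202. The authors' table of normalized counts held a Cebpa value worth 0 to 13.07% of the summed reads, close to the minor transcript Cebpa-201 (0 to 12.69%). For that value, limma on that table plus 0.5 gave a log2 change of -3.94 with an adjusted p of 0.0537, whereas limma on the table plus 1 kept the call, as did the remaining alternatives, 17 of 18 in all. Cebpb was at 29.35, 38.97 and 36.34 in EKLF/GFP+ and at 150.1, 129.6 and 197.1 in EKLF/GFP-. The groups lay far apart, with a log2 change of -2.19 (SE 0.23, adjusted p = 0.000153 by edgeR's quasi-likelihood test).

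Runx1 was at 715.8, 631.1 and 698.8 normalized counts in EKLF/GFP+ and at 1390, 1226 and 1216 in EKLF/GFP-. It kept the largest share of its level among the members that fell, with a log2 change of -0.91 (SE 0.09, adjusted p = 0.000135, edgeR's quasi-likelihood test and Benjamini-Hochberg adjustment), and a test against a 2-fold limit did not call it. Maf was at 31.25, 48.71 and 75.8 in EKLF/GFP+ and at 86.33, 90.97 and 87.47 in EKLF/GFP-. All EKLF/GFP+ libraries of Maf lay lower and were widely spread, and the log2 change of -0.77 (SE 0.30) had an adjusted p of 0.0731 in the same test. Without EKLF/GFP+ 3 the change of Maf was -1.14 and its adjusted p 0.0132. Nr1h3 was at 96.58, 146.1 and 252.3 in EKLF/GFP+ and at 110.7, 87.3 and 140.6 in EKLF/GFP-. Its groups overlapped, with a log2 change of 0.55 (SE 0.35) and an adjusted p of 0.24.

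Levels of different genes were compared per length, as TPM from the Salmon files summed per gene. Their order depends on how Salmon divided reads among transcripts of unequal length. In EKLF/GFP- 1, the 544-base Spi1-204 and the 402-base Spi1-203 gave 105.5 and 30.8 of the 152.1 TPM of Spi1 and the 2034-base Spi1-201 gave 15.6, and the 336-base Runx1-204 held 11.99% to 16.09% of Runx1 reads across libraries. The 480-base Irf8-206 gave 14.9 of the 28.6 TPM of Irf8 in EKLF/GFP- 1 on 13.39% of its reads. Without that transcript Irf8 would stand below Cebpe in every EKLF/GFP- library, so the order of these neighbors turns on it. At 15.6 TPM, Spi1-201 alone stood below Runx1 in EKLF/GFP- 1, which had 57.31 TPM over all its transcripts. The place of Spi1 above Runx1 there thus turns on the short Spi1 transcripts. In EKLF/GFP- cells Spi1 led at 141.3 ± 12.3 TPM (SD, n = 3), before Runx1 at 51.8 ± 5.12, Irf8 at 25.4 ± 6.41, Cebpe at 17.0 ± 0.0246 and Cebpa at 8.76 ± 0.683. Below them came Gfi1 at 3.58 ± 0.643, Cebpb at 2.87 ± 0.595, Nr1h3 at 2.14 ± 0.353 and Maf at 0.426 ± 0.0403 TPM. Gfi1 and Cebpb, and Cebpb and Nr1h3, overlapped between libraries, and the other neighbors did not. In EKLF/GFP+ cells the order of TPM changed: Runx1 at 32.1 ± 4.23 and Spi1 at 23.1 ± 5.02 led and overlapped, followed by Cebpe at 4.43 ± 1.04, Nr1h3 at 3.20 ± 1.56, Irf8 at 1.79 ± 0.419 and Cebpa at 1.67 ± 0.0694. Last stood Cebpb at 0.604 ± 0.0569, Maf at 0.246 ± 0.0988 and Gfi1 at 0.197 ± 0.0607 TPM. Here Cebpe overlapped Nr1h3, Nr1h3 overlapped Irf8, Irf8 overlapped Cebpa, and Maf overlapped Gfi1. Nr1h3 thus stood near the bottom of the order in EKLF/GFP- cells and near its middle in EKLF/GFP+ cells.

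Markers of several cell types differed strongly between the sorted groups. Monocyte markers, led by F13a1, summed to 2165, 2577 and 2176 normalized counts in EKLF/GFP+ and to 20945, 18266 and 19339 in EKLF/GFP-, with 8 of 8 lower. Neutrophil markers, led by S100a9, summed to 3208, 6503 and 8294 in EKLF/GFP+ and to 40950, 43569 and 58239 in EKLF/GFP-, with 9 of 9 lower. Progenitor markers, led by Mpo, summed to 13932, 14666 and 16267 and to 92019, 96631 and 94328, with 7 of 7 lower. These 3 lists thus went the way of Spi1, Irf8, Gfi1 and the C/EBP members, and none of their markers was at 0 in every library. So did dendritic cell markers, led by Flt3, which summed to 100.4, 109.3 and 113.2 in EKLF/GFP+ and to 1272, 1092 and 1169 in EKLF/GFP-, with 4 of 5 tested lower and none at 0 throughout. Lymphoid markers, led by Nkg7, summed to 243.3, 241.4 and 327.1 and to 1405, 1505 and 1639, with 6 of 6 tested lower and Cd3e at 0 in every library. Mesenchymal markers, led by Pdgfrb, summed to 227.2, 263 and 288.7 and to 511.4, 522.9 and 356.5, with 2 of 7 tested lower and none at 0 throughout. The sums of erythroid, megakaryocyte and eosinophil markers went the other way. Erythroid markers, led by Hbb-bs, summed to 380645, 480395 and 445158 in EKLF/GFP+ and to 210262, 264206 and 195956 in EKLF/GFP-, with 12 of 12 higher. Megakaryocyte markers, led by Itga2b, summed to 3961, 5974 and 5561 and to 2639, 2708 and 3106, with 7 of 8 higher and 1 lower. Eosinophil markers, led by Prg2, summed to 16794, 28805 and 29438 and to 11979, 11677 and 11721, with 4 of 4 higher. The part of these cell types in the changes of the members was not tested.

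Macrophage markers, led by Slc40a1, overlapped between the sorted groups, at 10500, 18508 and 24193 normalized counts in EKLF/GFP+ and 10648, 9700 and 14603 in EKLF/GFP-, with 2 of 14 higher and 1 lower. Per 100 macrophage marker counts, Nr1h3 was at 0.92, 0.79 and 1.04 in EKLF/GFP+ and at 1.04, 0.90 and 0.96 in EKLF/GFP-. On that scale Nr1h3 was level between the groups, within the spread of the libraries. Maf was at 0.298, 0.263 and 0.313 in EKLF/GFP+ and at 0.811, 0.938 and 0.599 in EKLF/GFP-, and Spi1 at 3.27, 2.22 and 2.34 against 25.4, 25.2 and 18.0. Set against macrophage markers, Maf and Spi1 did not overlap between the sorted groups. Endothelial markers, led by Stab2, summed to 1735, 2131 and 2430 normalized counts in EKLF/GFP+ and to 4653, 4224 and 4989 in EKLF/GFP-, with 4 of 7 lower and no marker at 0 throughout. These sums were lower in all EKLF/GFP+ libraries, as Maf was, and the part of endothelial cells in the values of Maf was not tested.

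Of 32 further macrophage and monocyte factors tested in this sort, 23 fell, 1 rose and 8 did not pass, with a median log2 change of -1.19. Klf4, a monocyte factor, fell by 21.9-fold (log2 change -4.46, SE 0.21, adjusted p = 8.13e-06, edgeR's quasi-likelihood test and Benjamini-Hochberg adjustment). Tfec, a macrophage relative of MITF, fell by 11-fold, and Irf5, a factor of inflammatory cytokine genes, by 7.74-fold. The gene that rose was Rxra, by 1.48-fold (log2 change 0.56, SE 0.15, adjusted p = 0.0158 in the same test). Its call ended without EKLF/GFP- 1 (0.0583), with an offset for transcript length (0.144) and with limma on the authors' table (0.126). Of these 32 factors 0 rose without EKLF/GFP- 1, and 2 rose without EKLF/GFP+ 1 and without EKLF/GFP- 3.

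Of 21 granulocyte, progenitor and erythroid factors 12 fell, 7 rose and 2 did not pass, with a median of -0.91. Cebpd, Runx2 and Erg fell by 8.32-fold, 7.97-fold and 7.66-fold. Among those that rose were factors shared by red cells and megakaryocytes: Gfi1b, the closest relative of Gfi1, rose from 588.5 ± 93.6 to 1555 ± 65.25 normalized counts, a 2.64-fold change (adjusted p = 5.68e-05, edgeR's quasi-likelihood test and Benjamini-Hochberg adjustment). Gata1, which opposes PU.1, rose from 842.4 ± 195.7 to 2195 ± 57.03, a log2 change of 1.38 (SE 0.16, adjusted p = 0.000225). Tal1 rose by 2.27-fold. Gfi1 and Gfi1b, and Spi1 and Gata1, therefore moved in opposite directions in the same libraries.

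Of 13 partners and corepressors 2 rose, 4 fell and 7 did not pass, with a median of -0.07. Cbfb, which encodes the partner of RUNX1, fell from 1773 ± 292.4 to 437 ± 29.02 normalized counts, a log2 change of -2.02 (SE 0.13, adjusted p = 2.11e-05, edgeR's quasi-likelihood test and Benjamini-Hochberg adjustment). The change of Cbfb was larger in size than the -0.91 of Runx1, a difference that was not tested. Trib2, which directs C/EBPα to degradation, rose by 2.34-fold (adjusted p = 0.000576 in the same test). Id1 fell by 3.51-fold.

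The targets of the members that fell mostly fell with them. These lists share genes with the cell type markers above: all primary granule genes are progenitor markers, and the secondary granule genes except Mmp9 are neutrophil markers, so that their falls are not separate from those of the markers. All 13 PU.1 targets tested fell, with a median of -2.0, led by Csf3r, the receptor for the granulocyte growth factor, at 16-fold (log2 change -4.00, SE 0.16, adjusted p = 5.69e-06, edgeR's quasi-likelihood test and Benjamini-Hochberg adjustment), before Cd14, a receptor for endotoxin, at 9.97-fold and Ncf1 at 6.34-fold. The 4 primary granule genes fell, with a median of -4.33, among them Elane from 6907 ± 113.6 to 305.2 ± 61.32 normalized counts (log2 change -4.50, SE 0.15), and Prtn3 and Ctsg by 19.7-fold and 20.3-fold. The 6 secondary granule genes fell too, with a median of -3.52, from Lcn2 at -4.07 over Mmp8, Ltf, Ngp and Camp at -4.04, -3.62, -3.41 and -3.40 to Mmp9 at -2.51. Without EKLF/GFP+ 3 the change of Mmp9 was -3.26. Of 6 IRF8 targets tested 5 fell, with a median of -1.51. Nlrc4, an inflammasome scaffold, fell by 3.7-fold (adjusted p = 0.00434 by edgeR's quasi-likelihood test), and limma on the authors' table plus 1 and plus 0.5 gave it 0.0731 and 0.0961. Naip5 and Naip6 fell by 3.05-fold and 3.17-fold, but these near-identical paralogs share reads and their separate values are uncertain.

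The targets of Maf and Nr1h3 did not move in one direction. Of 4 MAF targets tested 0 passed the test by edgeR, 1 was lower at an unadjusted p under 0.05, and 1 was lower by DESeq2, which was Mrc1 (0.03). The median was 0.25, and C1qa, C1qb and C1qc had log2 changes of 0.40, 0.12 and 0.37. The number of MAF targets that rose was 1 without EKLF/GFP+ 1, and the number that fell was 1 without EKLF/GFP+ 3. Of 13 LXRα targets 1 rose, 3 fell and 9 did not pass, with a median of 0.06. Scd1 rose by 2.56-fold (log2 change 1.35, SE 0.13, adjusted p = 9.8e-05, edgeR's quasi-likelihood test and Benjamini-Hochberg adjustment) and Abcg1 fell by 2.6-fold (log2 change -1.38, SE 0.16, adjusted p = 0.000249). Scd2 had a log2 change of -0.44 (adjusted p = 0.00686), which limma on the authors' table plus 1 put at -0.22 (0.328). Apoe had a log2 change of -0.62 (adjusted p = 0.0342), and its call ended without EKLF/GFP+ 1, EKLF/GFP+ 3, EKLF/GFP- 1 or EKLF/GFP- 3 (adjusted p = 0.106, 0.109, 0.0814 and 0.0999). The number of LXRα targets that rose was 3 without EKLF/GFP+ 1 and 2 without EKLF/GFP- 3, and the number that fell was 2 without EKLF/GFP+ 1, EKLF/GFP+ 3, EKLF/GFP- 1 or EKLF/GFP- 3.

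Genes that GFI1 represses did not stand higher where Gfi1 was low. Of 5 tested 3 fell and 2 did not pass, with a median of -1.33. Hoxa9, among the 3, was tested only because its counts in EKLF/GFP- passed the filter, so its fall does not bear on this statement. Id2 had a log2 change of -1.60 and Meis1 of -1.33, with adjusted p-values of 0.00135 and 4.08e-05 by edgeR's quasi-likelihood test and Benjamini-Hochberg adjustment. Hoxa9, a progenitor homeobox gene, had a log2 change of -3.87 at only 36.49 ± 8.684 normalized counts in EKLF/GFP- and 2.407 ± 2.413 in EKLF/GFP+, and one of -5.01 without EKLF/GFP+ 3. Csf1 had a log2 change of -0.05, and without EKLF/GFP+ 3 the number that fell was 4. Of the genes named in the reporter sort, a test against a 2-fold limit did not call Runx1, Tal1, Trib2, Nlrc4, Id2, Scd2, Rxra or Apoe.

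The genes lie apart in the genome, apart from Spi1 (chr2:91082390-91115756, plus strand) and Nr1h3 (chr2:91184061-91202834, minus strand), which are close neighbors on chromosome 2 of GRCm38. Spi1 fell by 5.89-fold in EKLF/GFP+ cells while its neighbor Nr1h3 did not pass the test. Cebpb lies farther along the same chromosome (chr2:167688915-167690418), Irf8 (chr8:120736358-120756694) and Maf (chr8:115682942-115707794) share chromosome 8, and Cebpa (chr7:35119293-35121928), Cebpe (chr14:54710360-54712174), Gfi1 (chr5:107716657-107726036) and Runx1 (chr16:92601466-92826149) are alone on theirs. Salmon's estimates divided the reads of some members between annotated transcription starts, and this division is an estimate from reads that transcripts share. For Gfi1, transcripts starting within 500 bases of position 107725805 held 100, 100 and 100% of reads in EKLF/GFP+ and 95.9, 92.8 and 93.5% in EKLF/GFP-. The rest in EKLF/GFP- fell on a start at 107724343, with 4.13, 7.18 and 6.51%. The EKLF/GFP+ libraries held only 24, 14 and 25 reads of Gfi1, so that a share of that size could be missed there. For Irf8, the start at 120738639 held 72.6, 83.4 and 76.0% in EKLF/GFP+ and 69.9, 73.0 and 73.4% in EKLF/GFP-. Its start at 120736358 held 27.4, 16.6 and 24% in EKLF/GFP+ and 22.2, 20.8 and 24.4% in EKLF/GFP-. The shares of both starts overlapped between the groups. Other starts of Irf8 held 0, 0 and 0% in EKLF/GFP+ and 7.83, 6.25 and 2.20% in EKLF/GFP-, without overlap and with no test, on 48, 101 and 106 reads of Irf8 in EKLF/GFP+.

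Runx1 has a distal and a proximal start, which serve blood cells and a wider range of tissues. The distal start at position 92826074 held 24.7, 27.6 and 24.9% of Runx1 reads in EKLF/GFP+ and 17.3, 17.2 and 22.6% in EKLF/GFP-. The proximal start at 92697329 held 18.4, 21.3 and 21.0% in EKLF/GFP+ and 25.8, 24.2 and 24.9% in EKLF/GFP-. The share of the distal start was higher in all EKLF/GFP+ libraries and that of the proximal start was lower, without overlap in either case and with no test. Other starts held 51.1% to 58.6% of Runx1 reads.

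Sequences around the starts of Gfi1, Irf8 and Runx1 are shown because Gfi1 and Irf8 fell furthest and Runx1 least among the members that fell, and because each has a pair of starts. They come from RefSeq (GRCm38.p6), from 250 bases before to 50 bases after a start, and 6 of the 9 members matched that table, with 10 windows. Capitals mark CCNCNCCC on either strand, the letters bound by EKLF and its relatives. GAGGAA, the core letters bound by PU.1, was also searched on both strands and is left in lower case. In the windows of the 6 members, these matches shared 0 bases. Of all 32851 RefSeq promoter windows of this length, 49.47% held CCNCNCCC and 28.28% held GAGGAA. The windows are Gfi1 chr5:107725756-107726055 and chr5:107724294-107724593 (both minus strand), Irf8 chr8:120736108-120736407 and chr8:120738389-120738688 (both plus strand), and Runx1 proximal chr16:92697280-92697579 and distal chr16:92826025-92826324 (both minus strand).
Gfi1 upstream: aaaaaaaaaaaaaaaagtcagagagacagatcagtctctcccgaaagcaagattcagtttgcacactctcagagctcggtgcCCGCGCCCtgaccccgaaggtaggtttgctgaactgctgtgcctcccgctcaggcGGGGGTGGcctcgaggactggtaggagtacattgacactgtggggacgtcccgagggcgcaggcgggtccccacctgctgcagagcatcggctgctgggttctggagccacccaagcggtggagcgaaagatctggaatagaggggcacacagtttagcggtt
Gfi1 downstream: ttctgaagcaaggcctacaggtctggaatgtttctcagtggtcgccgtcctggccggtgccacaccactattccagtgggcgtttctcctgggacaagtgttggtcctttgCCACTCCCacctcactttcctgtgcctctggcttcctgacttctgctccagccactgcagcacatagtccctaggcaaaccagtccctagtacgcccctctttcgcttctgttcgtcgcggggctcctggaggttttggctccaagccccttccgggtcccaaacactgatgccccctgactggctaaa
Irf8 upstream: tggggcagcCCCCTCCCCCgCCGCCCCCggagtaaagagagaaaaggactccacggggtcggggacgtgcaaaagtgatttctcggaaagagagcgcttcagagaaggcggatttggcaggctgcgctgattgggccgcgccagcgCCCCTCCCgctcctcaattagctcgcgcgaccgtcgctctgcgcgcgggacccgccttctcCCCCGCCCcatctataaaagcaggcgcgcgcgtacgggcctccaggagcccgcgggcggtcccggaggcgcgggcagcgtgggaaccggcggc
Irf8 downstream: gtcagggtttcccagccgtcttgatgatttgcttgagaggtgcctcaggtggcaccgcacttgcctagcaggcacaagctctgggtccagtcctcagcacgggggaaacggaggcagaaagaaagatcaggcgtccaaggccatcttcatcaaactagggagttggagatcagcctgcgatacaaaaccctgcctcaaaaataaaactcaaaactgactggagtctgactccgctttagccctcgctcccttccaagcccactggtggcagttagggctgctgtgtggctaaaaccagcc
Runx1 proximal: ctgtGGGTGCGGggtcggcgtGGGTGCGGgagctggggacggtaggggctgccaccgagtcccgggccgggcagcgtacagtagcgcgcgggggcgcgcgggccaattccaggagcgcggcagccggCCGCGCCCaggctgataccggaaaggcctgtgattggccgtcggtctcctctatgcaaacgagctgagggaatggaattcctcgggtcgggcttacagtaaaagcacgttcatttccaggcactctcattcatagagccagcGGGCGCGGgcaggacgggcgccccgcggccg
Runx1 distal: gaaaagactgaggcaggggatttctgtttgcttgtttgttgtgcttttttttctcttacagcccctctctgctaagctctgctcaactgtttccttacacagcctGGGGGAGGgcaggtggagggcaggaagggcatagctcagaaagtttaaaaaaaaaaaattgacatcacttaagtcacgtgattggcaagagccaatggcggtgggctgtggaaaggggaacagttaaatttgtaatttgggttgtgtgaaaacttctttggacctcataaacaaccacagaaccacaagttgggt

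The upstream and downstream windows of Gfi1 held 2 and 1 matches to CCNCNCCC, those of Irf8 5 and 0, and the proximal and distal windows of Runx1 4 and 1. GAGGAA occurred once in the proximal window of Runx1, 1 match, and in none of the windows of Gfi1 and Irf8. The base composition of the windows differed, at 70.0% and 54.67% G and C for Irf8 and at 69.0% and 45.0% for Runx1. Of the members whose windows are not shown, Cebpb had 6 matches to CCNCNCCC and Cebpa 1, and the windows of Nr1h3 had 3 and 2, with 1 match to GAGGAA in the window with 3. The windows of Nr1h3 overlap, and the matches to CCNCNCCC in the window with 2 are among those of the other. These counts describe letters in a window and were set against no measure of binding.

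The single-cell library showed which cells held each factor. Of 3096 barcodes, 0 of them repeated, 3093 cells were kept, with a median of 18605 counts. They formed 16 clusters, of which 11 were named from markers and 5 were not. The named classes were macrophage-like (1072 cells, median 17712 counts), monocyte-like (284 cells, 23489), neutrophil-like (220 cells, 22252), erythroid-like (466 cells, 22388), megakaryocyte-like (88 cells, 36553), endothelial-like (84 cells, 14516) and hepatoblast-like (66 cells, 21491). With 1 library there is no test: values are CPM, the counts of a gene scaled to the same total in every class, with exact Poisson 95% intervals and shares of cells with a count with Wilson 95% intervals, and both cover counting error only. The members were left out of the variable genes that formed the clusters, and with 1 library their levels by class are a description. Among the named classes, Spi1 was shared by macrophage-like, monocyte-like and neutrophil-like cells, Cebpe and Gfi1 were highest in neutrophil-like cells, Nr1h3 in macrophage-like cells, Maf in endothelial-like and macrophage-like cells, and Runx1 in megakaryocyte-like cells.

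Spi1 was at 333.3 CPM (320.0 to 346.9) in monocyte-like cells, at 299.4 (292.2 to 306.8) in macrophage-like cells and at 277.7 (263.7 to 292.2) in neutrophil-like cells. Counts of Spi1 were seen in 98.2% (95.95 to 99.25), 97.0% (95.82 to 97.88) and 96.4% (92.99 to 98.15) of these cells, and in 82.2%, 76.3% and 73.2% once each cell was thinned to 5000 counts. The 3 myeloid classes thus lay within a narrow band of Spi1. Erythroid-like cells had 23.9 CPM, a share of 36.5% (32.2 to 40.95) and a thinned share of 10.1%. This level is used as the background to read the other shares against, although the part of free RNA in it was not tested. Megakaryocyte-like, endothelial-like and hepatoblast-like cells were near it, at 31.0, 36.3 and 20.9 CPM.

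Irf8 was at 220.1 CPM (209.3 to 231.2) in monocyte-like cells and at 173.3 (167.8 to 178.9) in macrophage-like cells, and at 51.3 (45.36 to 57.71) in neutrophil-like cells. It was seen in 89.4%, 84.9% and 26.8% of these cells, or 56.9%, 51.9% and 12.5% after thinning, against 18.9% and 6.03% in erythroid-like cells. Endothelial-like cells held 71.8 CPM of Irf8, with 54.8% of cells positive and 36.1% after thinning, above neutrophil-like cells. Spi1 and Irf8 were seen together in 89.1% of monocyte-like, 82.7% of macrophage-like, 26.4% of neutrophil-like and 10.3% of erythroid-like cells.

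Cebpb was at 240.4 CPM (229.2 to 252.1) in monocyte-like, 223.0 (216.8 to 229.4) in macrophage-like and 140.6 (130.7 to 151.1) in neutrophil-like cells. Shares of cells with Cebpb were 91.9%, 90.4% and 85.9%, or 62.3%, 60.5% and 53.7% after thinning, against 26.2% and 7.54% in erythroid-like cells. Cebpa was much sparser. Hepatoblast-like cells had 30.8 CPM of Cebpa (23.6 to 39.5), monocyte-like cells 18.0 (15.0 to 21.37), macrophage-like cells 17.9 (16.14 to 19.74) and neutrophil-like cells 12.8 (9.914 to 16.19). CPM intervals of the myeloid classes met. Thinned shares of Cebpa were 19.7%, 9.61%, 9.08% and 2.78% in that order, and that of neutrophil-like cells (1.279 to 5.927) lay below those of monocyte-like (6.688 to 13.62) and macrophage-like cells (7.502 to 10.96). These stood against 0.216% in erythroid-like cells, where 0.928 CPM was seen. Unthinned, the shares were 56.1%, 34.2%, 26.3%, 19.1% and 2.36%.

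Cebpe and Gfi1 were far higher in neutrophil-like cells than in the other named classes. Cebpe was at 371.0 CPM (354.8 to 387.7) there, in 96.8% of cells (93.58 to 98.45) and 81.0% after thinning. Monocyte-like cells followed at 11.4 CPM, 16.9% of cells and 4.98% after thinning, and macrophage-like cells at 1.34 CPM, 2.43% and 0.749%. Gfi1 was at 60.8 CPM (54.39 to 67.83) in neutrophil-like cells, in 46.4% of cells (39.89 to 52.96) and 18.5% after thinning. Elsewhere among the named classes few cells held Gfi1: 2 of 1072 macrophage-like cells (0.187%), 2 of 284 monocyte-like cells and 1 of 466 erythroid-like cells held a count, at median depths close to that of neutrophil-like cells. Megakaryocyte-like cells, which were deeper, had a count of Gfi1 in 3 of 88 cells (3.41%, 1.17 to 9.55), at 0.862 CPM. Gfi1 had a count in 0 of 84 endothelial-like and 0 of 66 hepatoblast-like cells, where 3 counts of the total allow a share of cells with a count of up to 3.57% and 4.55%. These limit cells with a count, not cells that express Gfi1. Cebpe and Gfi1 were seen together in 102 of 220 neutrophil-like cells, so that every neutrophil-like cell with Gfi1 also held Cebpe. Gfi1 and Irf8, which pull progenitors toward different fates, were seen together in 22 of 220 neutrophil-like cells (10.0%). Irf8 alone had a count in 18.9% of erythroid-like cells, the background, so these 22 cells cannot be read as expressing both.

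Maf was highest in endothelial-like cells, at 947.3 CPM (895.5 to 1001), and next in macrophage-like cells, at 580.0 CPM (569.9 to 590.2). These classes had Maf in 96.4% and 97.6% of cells, or 89.2% and 87.6% after thinning. Monocyte-like cells had 237.1 CPM of Maf, with 71.5% of cells and 49.1% after thinning, and neutrophil-like cells 19.9 CPM, 29.6% and 10.2%. The erythroid-like background was 27.9 CPM, 36.3% and 11.2%, so that the share in neutrophil-like cells did not exceed it. Nr1h3 was at 287.7 CPM (280.6 to 295.0) in macrophage-like cells, in 89.9% of them (87.98 to 91.59) and 69.2% after thinning. All other named classes lay far lower, from 18.6 CPM in neutrophil-like to 48.2 in hepatoblast-like cells, with monocyte-like cells at 29.5 CPM, 44.7% and 13.9% and erythroid-like cells at 27.1 CPM, 41.2% and 11.0%. Nr1h3 in monocyte-like cells was therefore close to the erythroid-like background. Maf and Nr1h3 were seen together in 87.6% of macrophage-like cells (85.5 to 89.4), 36.6% of monocyte-like, 10.9% of neutrophil-like and 20.6% of erythroid-like cells.

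Among the named classes Runx1 was highest in megakaryocyte-like cells, at 171.5 CPM (158.0 to 185.8), in 89.8% of cells and 43.0% after thinning. Neutrophil-like cells at 114.0 CPM (105.1 to 123.4) and monocyte-like cells at 112.8 (105.1 to 120.8) were alike, with shares of 82.3% and 83.5%, or 38.9% and 35.6% after thinning. Macrophage-like cells lay lower, at 50.1 CPM (47.19 to 53.19), 46.1% and 20.8% after thinning. The lowest levels of Runx1 were 14.3 CPM in erythroid-like, 4.53 in endothelial-like and 1.99 in hepatoblast-like cells, where 4.55% of cells held a count.

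**Figure D3:**
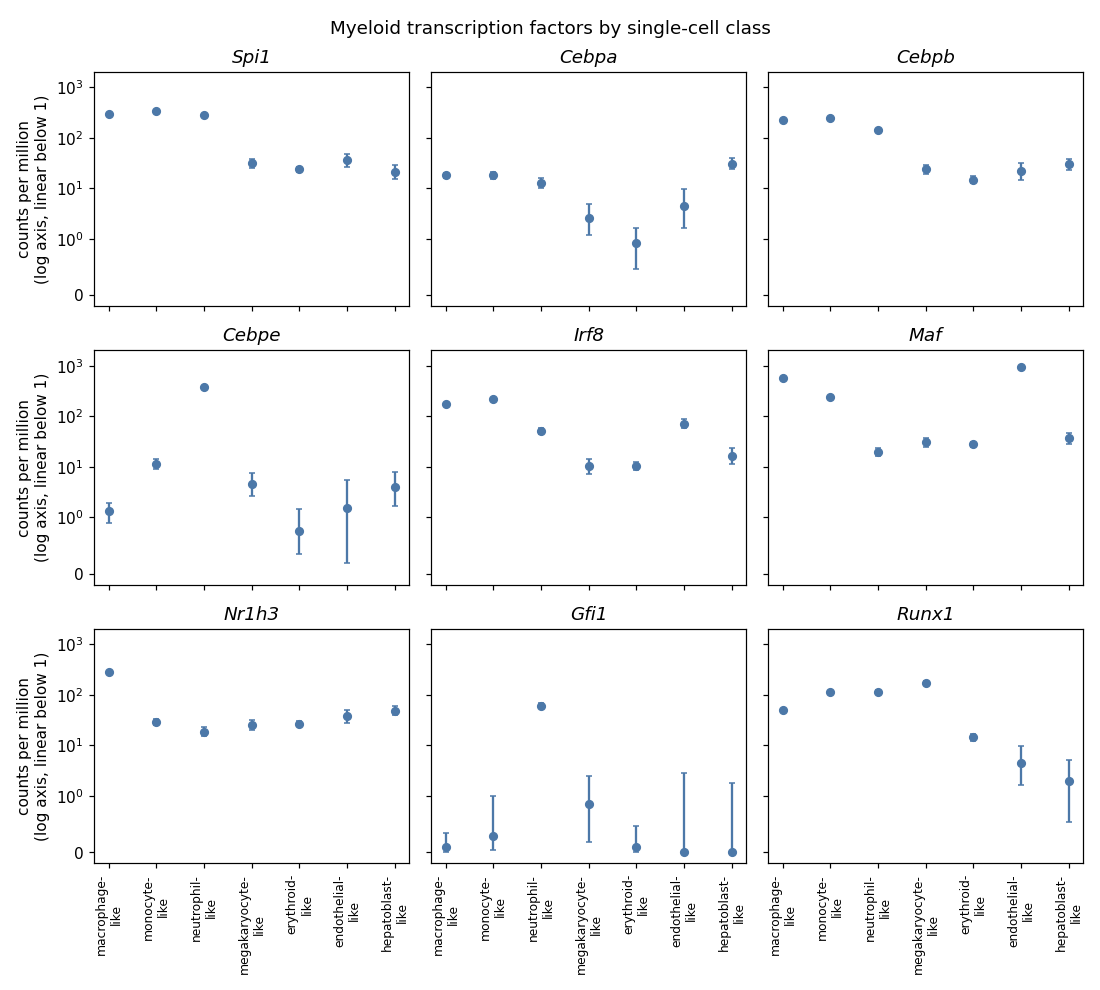
CPM of each member (log axis, linear below 1) in each named class of the single-cell library, with exact Poisson 95% intervals that cover counting error only. Spi1 lies between 277.7 and 333.3 in the myeloid classes, Gfi1 and Cebpe peak in neutrophil-like cells at 60.8 and 371.0, and Nr1h3 peaks in macrophage-like cells at 287.7.

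Macrophage-like cells came from 3 clusters that differed in these factors. Clusters 0, 1 and 3 held 402, 382 and 288 cells with median depths of 22923, 20164 and 9804 counts, and were led by Cd5l and Marco in cluster 0, Fcrls and Cx3cr1 in cluster 1, and Marco and Cd5l in cluster 3. Nr1h3 was at 342.2, 189.0 and 371.9 CPM in clusters 0, 1 and 3, and Maf at 503.4, 760.9 and 350.3 CPM. The cluster led by Fcrls and Cx3cr1 was thus the lowest of these for Nr1h3 and the highest for Maf. It was also the highest for Runx1, at 34.0, 82.3 and 17.5 CPM, and for Cebpa, at 11.8, 26.9 and 13.7 CPM. Spi1 varied little, at 284.8, 319.6 and 293.2 CPM, as did Cebpb, at 220.6, 240.4 and 184.9 CPM, and Irf8 was at 182.6, 181.1 and 122.6 CPM.

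Most cells held several members at once. The median number of members with a count was 5 in macrophage-like, monocyte-like and neutrophil-like cells, 3 in endothelial-like, hepatoblast-like and megakaryocyte-like cells and 2 in erythroid-like cells. These numbers depend on depth, and the part of free RNA in them was not tested. Of the erythroid-like cells, 87 held none of the 9 members.

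The genes whose CPM followed each member most closely over the 16 clusters were found by Pearson correlation of log2(CPM + 1) among 13722 genes, as a description over clusters of 1 library. Spi1 was closest to Tyrobp (0.99), Lst1 (0.987) and Cebpb (0.98), and Cebpb to Spi1 (0.98), Lst1 (0.977) and Tyrobp (0.975). Those members thus chose each other. Irf8 was closest to Sp100 (0.983), Slc25a45 (0.981) and Trim30a (0.969), and Runx1 to Samsn1 (0.937), Cracr2a (0.917) and Dapp1 (0.914). Maf was closest to Dab2 (0.987), Nrp1 (0.975) and Id3 (0.971), and Nr1h3 to Rab20 (0.994), Hmox1 (0.989) and Ccl24 (0.986). Hmox1 was among the macrophage markers that named the classes, and Runx1 had the loosest neighbors of the 9. Cebpe was closest to Hsd11b1 (0.964), 1700020L24Rik (0.956) and Cldn15 (0.956), Gfi1 to Hsd17b1 (0.979), Rdh12 (0.964) and Ms4a3 (0.964), and Cebpa to Tent5a (0.949), Plekhg3 (0.939) and Dhdh (0.933). Between members, the correlation over the 16 clusters was 0.911 for Cebpe with Gfi1, 0.794 for Maf with Nr1h3 and -0.0035 for Irf8 with Gfi1.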

How the data were processed

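The members, lists and markers were chosen with earlier results of these data known. Of EKLF+/+ and EKLF-/- cells, the authors deposited STAR and HTSeq counts per gene, which went unchanged into edgeR 4.0.16 (quasi-likelihood test, TMM factors, Benjamini-Hochberg adjustment over all genes tested). Of the counts in those files 27.31% to 28.95% lay on genes in EKLF+/+ and 31.07% to 32.78% in EKLF-/-. These shares did not overlap between the groups, and their part in the changes was not tested. The rest, on entries that name no gene, was left out. Older symbols were translated (1919 genes, Spi1 from Sfpi1). For the EKLF/GFP libraries the authors deposited Salmon estimated counts and TPM per transcript, and both were summed per gene (GENCODE vM21), with the estimated counts rounded. The authors' normalized counts from DESeq2, a signal with size factors removed, were used in alternatives with limma 3.58.1 only. Genes needed 10 counts in 3 libraries. Single-cell counts, deposited by the authors from alevin as estimated counts of molecules, were clustered with Seurat 5.3.0 (4000 variable genes, 30 components, resolution 0.8) after 3 cells with under 200 genes were left out. Scrublet in scanpy 1.11.5 marked 0 cells as doublets, so no cell was removed for that. Named genes were the 9 members, the 3 genes of each list with the largest change each way past the threshold among those with a mean of 50 or more (all genes of lists of 6 or fewer), and the 3 genes most correlated with each member. Some genes of the lists are not reported here by name. DESeq2 1.42.0, other scalings and filters, a length correction, a replicate block and each library left out were the alternatives. Tests were run first on simulated data. Code ran in R 4.3.3 and in Python 3.11.15 with matplotlib 3.10.9, pandas 2.3.3, scipy 1.17.1 and numpy 2.4.6.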

Additional observations from a re-analysis of the deposited data

How the results depend on the processing

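In EKLF-/- against EKLF+/+ 1356 genes fell and 1239 rose. With a limit of a 2-fold change these were 142 and 49, with 0 members higher. Without 1 library at a time, 583 to 1891 genes were lower, 361 to 1759 higher, and 0 to 4 members higher in place of 3. Members lower were 0, and 1 with DESeq2, with no filter on low counts and without EKLF-/- 1. In EKLF/GFP+ against EKLF/GFP- the 2-fold limit left 1293 of 3677 genes lower and 269 of 2695 higher. The cause was not tested in any of these.

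Replicate numbers did not pair libraries: same-numbered libraries correlated at -0.0054, 0.0034 and 0.056 in the first comparison and at 0.032, -0.089 and 0.027 in the reporter sort. With the replicate block 1037 genes were lower and 864 higher in EKLF-/-, with 3 members higher and 0 lower, and with gene length corrected as well 1488 and 1272. In the reporter sort the block gave 3426 lower and 2363 higher, with 7 members lower, and with length 3196 and 2877.

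Directions turned for genes that were not called. In EKLF-/-, Cebpb was at -0.0065 with block and length, C1qb at -0.00011 with block and length, and C1qc at -0.13 with length and -0.15 with block and length. Without 1 library at a time Maf ran from -0.053 to 0.40, C1qa from -0.68 to 0.10, C1qb from -0.20 to 0.81 and C1qc from -0.35 to 0.36. In the reporter sort Csf1 was at 0.0052 with length, and without 1 library at a time C1qb ran from -0.18 to 0.42 and Csf1 from -0.17 to 0.063. The cause was not tested.

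Of all values of named genes under alternatives, 578 kept direction and side of the threshold in EKLF-/- and 897 in the reporter sort, while 120 and 23 lost a call and 11 and 9 gained one. Of single-cell shares 299 stayed within their intervals and 79 moved beyond them, over other resolutions, filters and, as a choice made after seeing the data, without the 155 cells of highest Scrublet score. At a resolution of 1.2 the named classes differed by a granulocyte-monocyte progenitor-like class, which the main clustering did not name. Depth was 10695514 to 28736342 counts per bulk library. In the single-cell library the number of cells limits what a count of 0 shows, as in the 66 hepatoblast-like cells for Gfi1 (up to 4.55% of cells with a count).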

Other observations

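Clusters of the single-cell library that took no name differed in the members. Cluster 10, of 115 cells with a median of 24185 counts, was led by Ifitm1, Cpa3, Hmga2 and Gata2. It had the highest Runx1 of all clusters, at 354.8 CPM (334.9 to 375.7) and in 93.9% of cells, beside Spi1 at 146.0 CPM in 89.6% of cells. Cebpa, at 32.2 CPM and in 38.3% of cells, and Gfi1, at 10.5 CPM and in 21.7% of cells, were also seen there, while Maf and Nr1h3 were at 25.6 and 20.5 CPM. Cluster 8, of 157 cells with a median of 51652 counts and led by Gm43041, Olfr1388, Sphk1 and Podxl, had little of any member, with Runx1 the highest at 27.7 CPM and in 64.3% of cells.

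Clusters 2, 9 and 15 held 362, 124 and 55 cells at median depths of 9478, 8314 and 5178 counts. Nr1h3 was at 332.5, 328.8 and 205.8 CPM in them and Maf at 452, 435.6 and 450.9 CPM, levels near those of the macrophage-like clusters. Spi1 was at 315.7, 261.8 and 121.1 CPM. Cluster 9 carried markers of macrophages together with those of erythroid cells, and its 83.1% of cells with Nr1h3 stood beside 41.2% in erythroid-like cells.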
